A study of Mus musculus with 29 samples.

Results

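Methylation of 9 genes for lung developmental transcription factors (Nkx2-1, Sox2, Sox9, Gata6, Tcf21, Tbx2, Tbx3, Tbx4 and Tbx5) was examined in the lungs of adult mice with and without allergic airways disease (AAD). The members were the windows of the methylation table that carried the name of 1 of these genes, which gave 63 of 260686 windows. They belonged to 7 genes, with 16 windows for Tbx5, 11 each for Tbx4 and Gata6, 8 for Tbx2, 6 each for Nkx2-1 and Tbx3 and 5 for Sox9. No window carried the name of Sox2 or Tcf21. The table gives 1 gene name per window, and the 3 windows overlapping each of these genes were named for Sox2ot and Gm10824, a pair of transcripts that overlap them. Likewise, the 2 windows at the 5′ end of Tbx3 were named Tbx3os1 and the 2 at the 5′ end of Gata6 were named Gata6os. These 10 windows are not counted among the 63.

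The study asked whether air pollution during development alters the lung response to an allergen. DNA from lung of 29 Balb/c mice, female per the series and 13 weeks old, underwent enzymatic methyl-sequencing of the whole genome, in which methylated cytosines are protected from enzymatic conversion. Offspring of dams given intranasal saline were left without allergen (Sham, n = 7) or were sensitised to and challenged with ovalbumin (Sham-OVA, n = 7), and offspring of dams given fine particulate matter, PM2.5, before mating, during gestation and until weaning were treated in the same ways (PM, n = 7, and PM-OVA, n = 8). The labels name no genetic modification. Each value is the percentage of methylation (%DNAm) of 1 window, and the windows of the 9 genes held a median of 50 CpG dinucleotides. The table has no read counts, so the depth behind a value is unknown and precision is set by how many mice were compared. The labels do not give litters, so differences were tested against the spread between these mice, some of which may be littermates. Dams received the PM2.5 or saline, so littermates are not independent replicates of maternal exposure.

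Of 1230 Y chromosome windows, 1224 had a value in Sham replicate 1 against 29 to 46 in each of the other 28 libraries, so this library went against its female label. It was retained, and the main counts over the 63 windows are also given without it. Mitochondrial windows, which carry little CpG methylation, averaged 0.210% to 0.704% over the 29 libraries, with medians between 0.301% and 0.389% in the 4 groups. The windows of 24 leucocyte marker genes had a mean level of 68.9% to 70.3% in Sham and 69.4% to 70.6% in PM, against 66.8% to 68.2% in Sham-OVA and 66.7% to 67.8% in PM-OVA, with no overlap between challenged and unchallenged libraries. The lung is a mixture of cells, so a shift in cell types and a change within cells cannot be told apart in any result that follows.

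Nkx2-1, a homeodomain factor, specifies the respiratory endoderm and is required in the adult for surfactant and secretory genes. Sox2 marks the proximal airway lineage and Sox9 the distal tips of the branching epithelium, where Gata6 also acts in epithelial maturation. Tbx2, Tbx3, Tbx4 and Tbx5 are T-box factors of the lung mesenchyme, with Tbx4 and Tbx5 needed for lung bud outgrowth, and Tcf21 directs mesenchymal and fibroblast differentiation. Genes of this kind often lie in long CpG-rich regions that stay unmethylated in most tissues, with higher methylation at the edges and in the gene body.

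The sequences below are from 5 windows in which %DNAm differed with OVA challenge in offspring of both kinds of dam. Each is the 200-base stretch of the window that has no annotated exon and the most CpG dinucleotides, read from GRCm38 on the strand of the gene, with every CpG in capitals. The first pair are from windows that rose and were nearly unmethylated, and the other three from windows that fell.
Nkx2-1, chr12:56533781-56533980, minus strand: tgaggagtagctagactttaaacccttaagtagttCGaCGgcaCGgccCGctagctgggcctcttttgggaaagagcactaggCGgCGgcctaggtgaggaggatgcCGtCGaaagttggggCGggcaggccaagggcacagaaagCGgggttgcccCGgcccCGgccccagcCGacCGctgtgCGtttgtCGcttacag
Sox9, chr11:112783016-112783215, plus strand: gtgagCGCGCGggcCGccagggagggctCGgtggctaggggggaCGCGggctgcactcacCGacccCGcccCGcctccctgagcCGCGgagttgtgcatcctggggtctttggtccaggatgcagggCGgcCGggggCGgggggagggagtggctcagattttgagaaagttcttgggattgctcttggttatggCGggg
Tbx2, chr11:85838853-85839052, plus strand: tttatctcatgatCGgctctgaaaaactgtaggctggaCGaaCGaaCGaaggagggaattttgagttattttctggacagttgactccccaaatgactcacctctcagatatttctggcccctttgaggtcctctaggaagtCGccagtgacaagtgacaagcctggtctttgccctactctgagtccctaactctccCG
Tbx5, chr5:119841954-119842153, plus strand: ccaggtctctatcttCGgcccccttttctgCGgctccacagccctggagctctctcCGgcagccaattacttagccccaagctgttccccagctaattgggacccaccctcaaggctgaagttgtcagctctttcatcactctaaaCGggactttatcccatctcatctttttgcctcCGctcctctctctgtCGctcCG
Tcf21, chr10:22820476-22820675, minus strand: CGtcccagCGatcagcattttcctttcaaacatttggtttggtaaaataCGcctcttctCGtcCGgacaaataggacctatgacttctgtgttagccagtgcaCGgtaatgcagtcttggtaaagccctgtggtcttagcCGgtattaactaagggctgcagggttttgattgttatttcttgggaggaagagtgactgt
The Nkx2-1 and Sox9 stretches are intronic and held 16 CpGs each. The intronic stretches of Tbx2 and Tbx5 held 6 and 7 CpGs. The Tcf21 stretch lies upstream of the gene start and held 7 CpGs.

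Without challenge, the member windows were much less methylated than most gene windows. Their median level was 17.2%, against 77% over the 259167 windows tested, and 36 of 63 (57.1%) were under 25%, against 9.23% of all windows. They were also denser in CpG, with a median of 2.19 CpGs per 100 bp against 1.06, and shorter, with a median of 2283 bp against 4772 bp. Levels also differed at like density. In the middle range of member densities (1.36 to 4.6 CpGs per 100 bp) 20 of 31 member windows were under 25%, against 12.6% of all 65870 windows in that range.

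**Figure D1:**
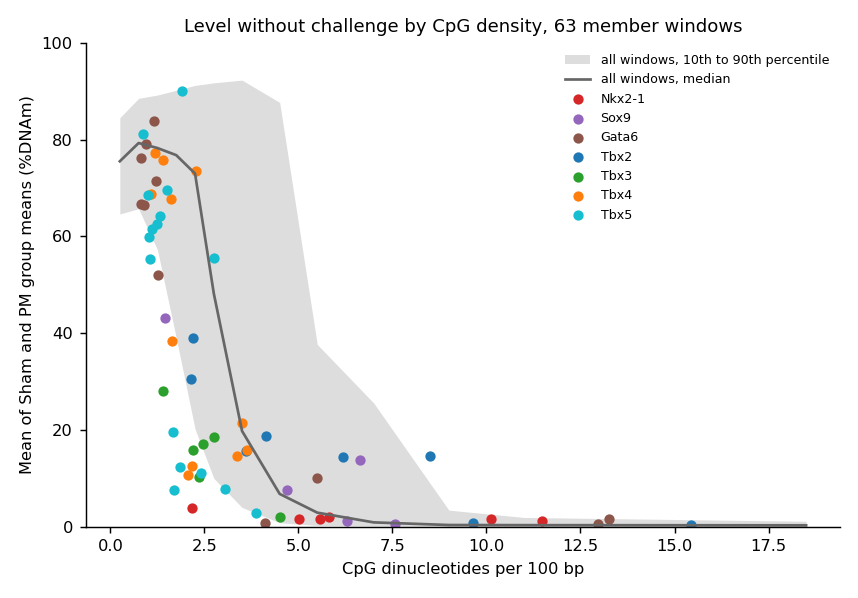
%DNAm without challenge (mean of the Sham and PM group means, y axis) against CpG dinucleotides per 100 bp (x axis) for the 63 member windows, coloured by gene. The line and band are the median and the 10th to 90th percentile of all windows, and 36 of the 63 points lie under 25%.

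The genes differed in how far the low region reached. All 6 Nkx2-1 windows, which span the gene at chr12:56531958-56536908, lay between 1.12% and 3.80%. The 3 windows over Sox2 (chr3:34650405-34652461) lay between 1.26% and 6.11%, and the 3 over Tcf21 (chr10:22817281-22820174) between 8.92% and 23.2%. In Sox9 (chr11:112782224-112787760) the level climbed from 0.574% at the gene start to 43.1% at the 3′ end. Tbx2 (chr11:85832551-85841948) and Tbx3 (chr5:119670669-119684724) had near-zero 5′ ends and bodies of up to 39.0% and 28%. Tbx4 (chr11:85886422-85916097), Tbx5 (chr5:119832668-119885219) and Gata6 (chr18:11052064-11085635) combined a low 5′ part with distal windows of up to 77.3%, 90.1% and 83.8%. Averaged over its windows in Sham, Nkx2-1 was lowest (1.96% ± 0.31, SD, n = 7), followed by Sox2 (3.62% ± 0.30), Sox9 (13.3% ± 1.2), Tcf21 (13.4% ± 1.2), Tbx3 (14.3% ± 1.1), Tbx2 (16.3% ± 1.6), Tbx4 (43.0% ± 0.77), Tbx5 (44.9% ± 0.70) and Gata6 (46.3% ± 1.0). The ranges of the Sham libraries overlapped between Sox9 and Tcf21, Tcf21 and Tbx3, Tbx3 and Tbx2, Tbx4 and Tbx5, and Tbx5 and Gata6. In PM, Tbx5 (46.3%) and Gata6 (46.2%) stood in the other order, and genes were not tested against each other. These averages depend on which windows were named for each gene.

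**Figure D2:**
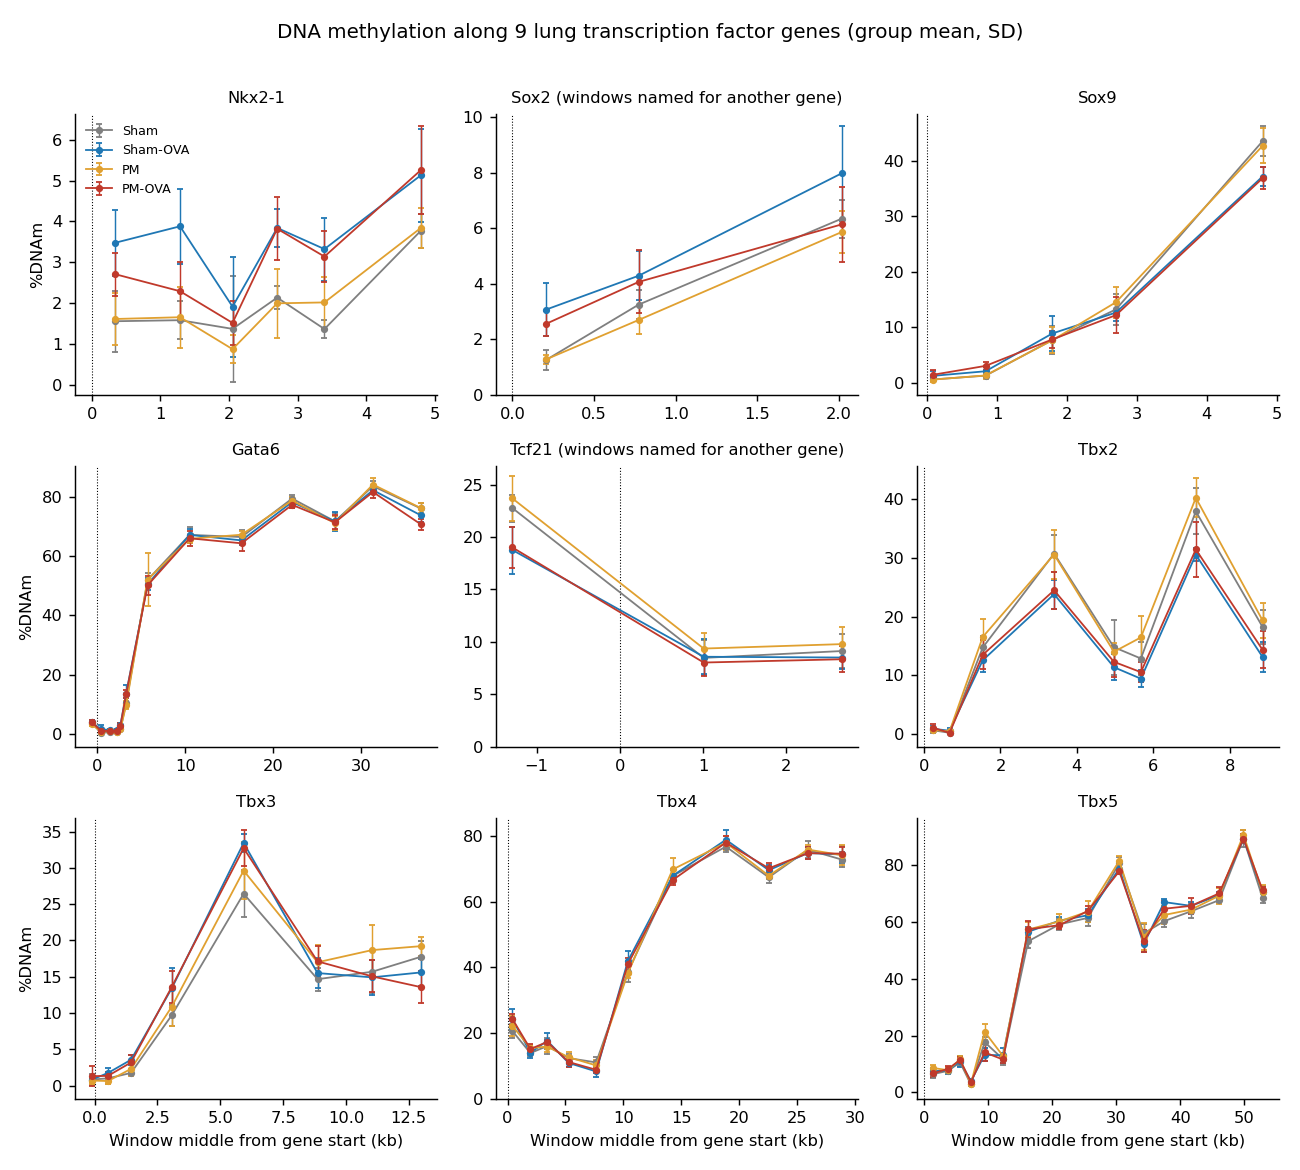
%DNAm (y axis) along the 9 genes against the distance of each window's middle from the gene start (x axis, kb), as group mean with SD for Sham, Sham-OVA, PM (n = 7 each) and PM-OVA (n = 8). All Nkx2-1 windows stay low, with both OVA groups above their controls, while the body of Tbx2 lies lower in both OVA groups.

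OVA challenge was associated with small changes in many of these windows and with no large ones. In Sham offspring 18 of the 63 windows rose (28.6%) and 7 fell (11.1%) at an adjusted p under 0.05 by limma, against 13.3% and 22.3% of all windows tested. In PM offspring 11 rose (17.5%) and 15 fell (23.8%), against 9.26% and 34.8% of all windows. None of the 63 was a differentially methylated region (DMR), which required an adjusted p under 0.05 together with group means at least 10 percentage points apart, and a share of 0 differs little from the 0.775% and 0.584% of all windows called in Sham and PM offspring. The largest difference was 7.34 points for Sham-OVA and 8.75 points for PM-OVA. With a minimum of 5 points in place of 10, 6 members (9.52%) and 7 members (11.1%) were DMRs, against 5.96% and 5.89% of all windows. Without Sham replicate 1, 16 windows rose and 9 fell in Sham offspring, and 11 rose and 15 fell in PM offspring. Of the 25 calls in Sham and the 26 in PM offspring, 5 and 8 were lost when some single library was left out, and 11 and 7 other windows passed the test in such a fit.

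The level of all windows moved down with challenge, with a median difference of −0.414 points for Sham-OVA and −1.03 points for PM-OVA, whereas the member medians were 0.654 and 0.0461 points. After each library was centred on its own median deviation, 21 member windows rose and 7 fell in Sham offspring, and 20 rose and 9 fell in PM offspring. Over all windows centring gave 18.3% higher and 17.8% lower in Sham offspring and 18.9% and 18.7% in PM offspring. Centring places gains and losses near balance over all windows by construction, so only the member counts could vary. In PM offspring these turned from more losses to more gains, with 1 amount added to every difference.

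The comparisons in Sham and in PM offspring share no library, but both came from 1 fit and share its estimate of each window's spread. Of the 63 windows, 10 rose in both, 6 fell in both and none moved in opposite directions past the test, while 28 passed it in neither. The differences had the same sign in 53 of 63 windows (84.1%, against 81.8% of all windows). Across the 63 windows the 2 differences had a Pearson r of 0.874, against 0.879 across all windows, where windows are not independent replicates.

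**Figure D3:**
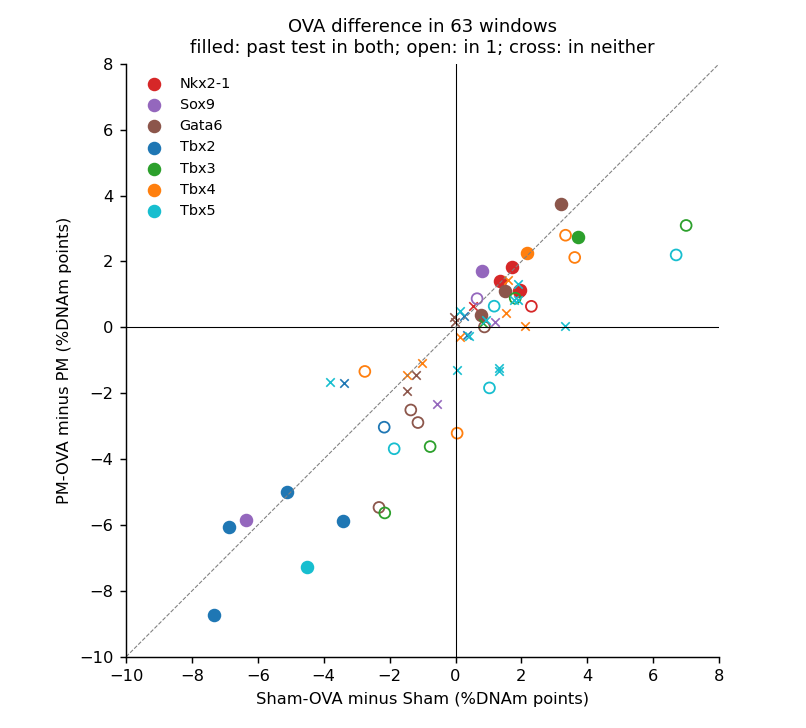
OVA difference in PM offspring (y axis) against that in Sham offspring (x axis), in %DNAm points, for the 63 windows, coloured by gene. Filled points passed the test in both comparisons (10 higher, 6 lower), open points in 1 and crosses in neither (28), and the dashed line marks equal differences.

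Gains were most frequent among the least methylated windows. Of the 15 member windows with a mean under 5%, 11 rose and none fell in Sham offspring, and 8 rose and none fell in PM offspring, with median differences of 1.17 and 0.869 points. Over all 15134 windows of that level, 15.2% rose and 2.02% fell in Sham offspring, 13.3% rose and 2.46% fell in PM offspring, and the medians were 0.0967 and 0.0528 points. Nkx2-1 alone held 5 of the member gains in Sham and 4 in PM offspring, and adjoining Gata6 windows held others. Such neighbours are not independent, and levels within the class were not matched. Of the 21 windows between 5% and 25%, 3 rose and 4 fell in Sham offspring and 2 rose and 7 fell in PM offspring, against 27.7% higher and 11.4% lower (Sham) and 23.4% and 14.5% (PM) of all windows of that level. Of the 5 between 25% and 50%, 2 rose and 3 fell in Sham offspring, and 3 fell in PM offspring, where all windows of that level had 22.3% higher and 13.5% lower (Sham) and 17.8% and 17.3% (PM). Of the 22 at 50% or more, 2 rose in Sham offspring, and 1 rose and 5 fell in PM offspring, against 12.1% and 24.6% (Sham) and 7.94% and 38.8% (PM) of all windows. After centring, 11 of the 15 windows under 5% rose and none fell in each kind of offspring, against 17.7% higher (Sham) and 19.5% higher (PM) of all windows of that level. Centring added 1 amount to all differences of a comparison, set mostly by the windows at 50% or more (85.8% of all windows). Those had medians of −0.661 and −1.33 points, so centring pushed windows under 5% upwards. The centred gains under 5% are therefore not a separate check. Between 5% and 25%, 3 rose and 4 fell in Sham offspring and 4 rose and 4 fell in PM offspring, against 34.6% and 8.11% (Sham) and 40.4% and 6.24% (PM). Between 25% and 50%, 2 rose and 3 fell in each, against 29.9% and 9.29% (Sham) and 37.2% and 7.37% (PM). At 50% or more, 5 rose and none fell in Sham offspring and 3 rose and 2 fell in PM offspring, against 17% and 19.8% (Sham) and 17% and 21% (PM). Without Sham replicate 1, the windows at 50% or more had 1 that rose and 2 that fell in Sham offspring. The level classes were chosen after the values were seen.

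**Figure D4:**
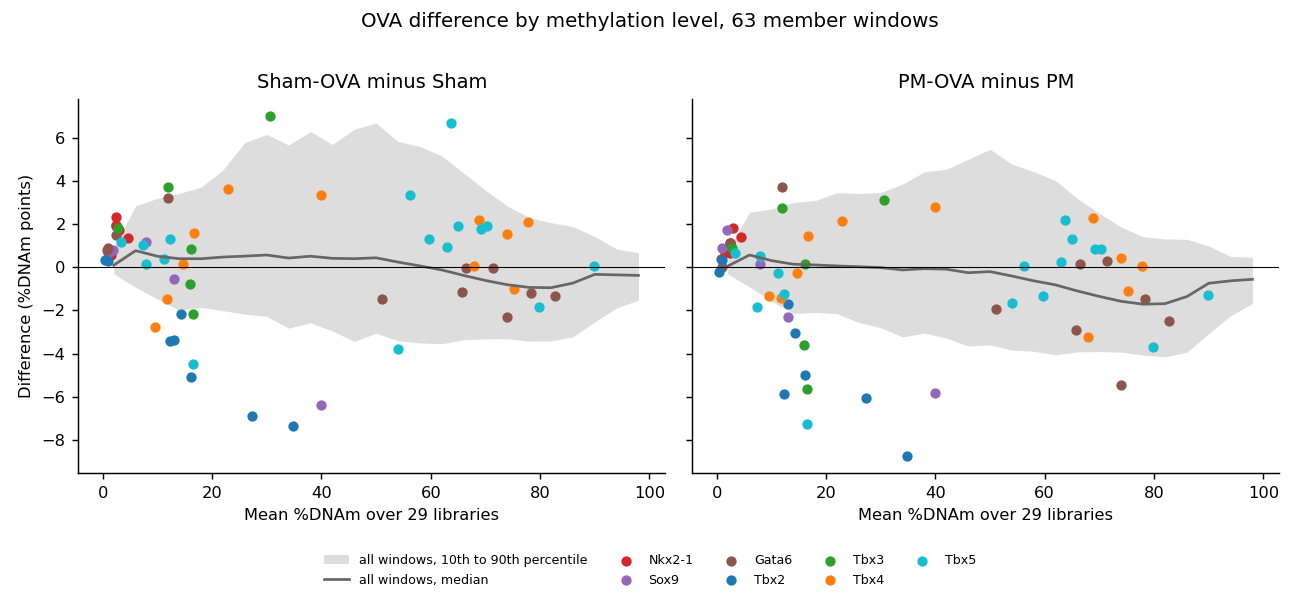
OVA difference in %DNAm points (y axis) against the mean %DNAm over 29 libraries (x axis) for the 63 windows in Sham offspring (left) and PM offspring (right). The line and band are the median and the 10th to 90th percentile of all windows of that level, and several Tbx2 body windows lie below the band in both panels.

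Nkx2-1, the homeodomain factor of lung epithelium, gained methylation along the gene. In Sham offspring 5 of its 6 windows rose and none fell, and in PM offspring 4 rose and none fell. The mean over its windows was 1.57% to 2.58% in Sham and 3.15% to 4.49% in Sham-OVA libraries, with no overlap. It was 1.56% to 2.33% in PM and 2.68% to 3.35% in PM-OVA libraries, again with no overlap.

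The Nkx2-1 window with the smallest p in Sham offspring was chr12:56533269-56533762, all 494 bases of which are coding. Its lowest, median and highest values were 0.985%, 1.29% and 1.69% in Sham, and 2.26%, 3.38% and 4.26% in Sham-OVA. The groups did not overlap, and the mean rose from 1.36% ± 0.23 to 3.32% ± 0.77 (SD, n = 7 each), by 1.96 points (adjusted p = 4.9e-06, limma). In PM offspring the same window ran from 0.990% over 2.11% to 2.91% without challenge and from 2.57% over 2.97% to 4.30% with it. These ranges overlapped, although all 8 PM-OVA values exceeded the PM mean, and the rise was 1.12 points (adjusted p = 0.0020).

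The neighbouring window, chr12:56533774-56534634, is intronic but for 7 coding bases and holds the Nkx2-1 stretch printed above. Its values were 1.71%, 2.19% and 2.57% (lowest, median, highest) in Sham, 3.32%, 3.86% and 4.70% in Sham-OVA, 1.15%, 1.94% and 3.63% in PM and 3.31%, 3.57% and 5.64% in PM-OVA. Challenged and unchallenged values were separate in Sham offspring and overlapped in PM offspring. It rose by 1.71 points in Sham (adjusted p = 0.00016) and by 1.83 points in PM offspring (adjusted p = 1.5e-05).

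The window at the Nkx2-1 gene start, chr12:56536118-56537014, had values of 0.548%, 1.60% and 2.74% in Sham, 2.67%, 3.09% and 5.01% in Sham-OVA, 0.897%, 1.52% and 2.70% in PM and 1.98%, 2.81% and 3.49% in PM-OVA. All 7 Sham-OVA and all 8 PM-OVA values exceeded the mean of their controls, and the rises were 1.92 and 1.10 points (adjusted p = 0.00014 and 0.0063). Next to it, chr12:56535122-56536117 rose by 2.30 points in Sham offspring without overlap (adjusted p = 5.1e-05). The difference there in PM offspring was 0.64 points (adjusted p = 0.084), and passed the test without PM replicate 2 or 7 or PM-OVA replicate 1 or 5 (adjusted p of 0.025 to 0.044). After centring, which adds an amount to every difference, it was 1.62 points (adjusted p = 0.032).

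Sox2, the factor of the conducting airways, gained methylation at its start. The window chr3:34650396-34650827 holds the gene start and 412 coding bases of Sox2, and ran from 0.777% over 1.11% to 1.84% in Sham, 1.89% over 2.91% to 4.48% in Sham-OVA, 1.08% over 1.27% to 1.54% in PM and 1.69% over 2.64% to 3.07% in PM-OVA. Challenged and unchallenged mice did not overlap in either kind of offspring. It rose by 1.82 points in Sham (adjusted p = 2.6e-06) and by 1.28 points in PM offspring (adjusted p = 4.2e-05). Of the other 2 windows over Sox2, neither passed the test in Sham offspring (both did after centring, higher) and 1 rose in PM offspring. The reads of Sox2 and of Sox2ot, which runs through it, cannot be told apart in such a window.

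Sox9, the factor of the distal epithelial tips, rose at the 5′ end and fell at the 3′ end. The window chr11:112782664-112783457, 352 bases of which are coding, had values of 0.501%, 1.25% and 2.28% in PM and 2.10%, 2.94% and 4.45% in PM-OVA. All 8 PM-OVA values lay above the PM mean and the rise was 1.72 points (adjusted p = 4.4e-05). In Sham offspring it rose from 1.26% ± 0.31 to 2.06% ± 0.69, by 0.79 points (adjusted p = 0.032), but the call was lost without Sham replicate 1 (adjusted p = 0.057), Sham replicate 6 or 7 or Sham-OVA replicate 2, 4 or 6 (0.051 to 0.083). The last window, chr11:112785306-112788732, runs past the gene end and had values of 39.9%, 43.3% and 47.0% in Sham, 34.9%, 37.0% and 40.2% in Sham-OVA, 37.5%, 42.8% and 48.1% in PM and 33.9%, 37.3% and 38.9% in PM-OVA. All challenged values were under the mean of their controls, and it fell, with differences of −6.37 points for Sham-OVA and −5.83 points for PM-OVA (adjusted p = 0.00033 and 0.00042). The window at the Sox9 start stayed under 3% in every library and rose by 0.87 points in PM offspring (adjusted p = 0.018), a call lost with the replicate block (0.058) and on the percent scale (0.074), whereas the difference in Sham offspring was 0.65 points (adjusted p = 0.12, and 0.039 without Sham-OVA replicate 5).

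Gata6, a zinc finger factor of endoderm and of epithelial maturation, had 4 windows that rose and none that fell in Sham offspring, and 3 of each in PM offspring. The 4 were adjoining windows between 833 and 3719 bp from the gene start. One of them, chr18:11054873-11055783, chosen after its values were seen, rose by 3.20 points in Sham (adjusted p = 0.011) and by 3.73 points in PM offspring (adjusted p = 0.0012), from 10.4% ± 1.7 to 13.6% ± 2.9 and from 9.72% ± 1.2 to 13.5% ± 1.4. The first, chr18:11052897-11054109, had values of 0.162%, 0.542% and 0.961% in Sham and 0.968%, 1.23% and 2.23% in Sham-OVA. These groups did not overlap and the rise was 0.88 points (adjusted p = 7.1e-05). In PM offspring the same window was at 0.705%, 0.943% and 1.60% without challenge, and at 0.742%, 1.00% and 1.46% with it, a difference of 0.01 points (adjusted p = 0.92). Centring, which adds an amount to every difference, gave 0.992 points there (adjusted p = 0.47). Neither PM against Sham nor the interaction passed the limma test in this window (adjusted p = 0.72 and 0.55). The 3 that fell in PM offspring lay from the middle of the gene to beyond its 3′ end, and 2 of these calls were lost after centring, which left 3 higher and 1 lower. The last, chr18:11085518-11092081, runs mostly past the gene end. It fell by 5.47 points (adjusted p = 8.9e-05), and its difference in Sham offspring was −2.32 points (adjusted p = 0.075, and 0.024 to 0.0498 without Sham replicate 1 or 2 or Sham-OVA replicate 1). The window at the Gata6 start (3.55% ± 0.88 in Sham) differed by 0.43 and 0.66 points (adjusted p = 0.37 and 0.15).

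Tbx2, a T-box repressor that keeps fetal lung mesenchyme proliferating, lost methylation through its body. Of 8 windows, 4 fell in Sham and 5 in PM offspring (4 after centring) and none rose, and the mean over its windows was 16.3% ± 1.6 in Sham, 12.8% ± 1.1 in Sham-OVA, 17.3% ± 1.7 in PM and 13.5% ± 1.3 in PM-OVA. The strongest loss was in chr11:85838525-85840807, which is intronic but for 240 coding bases and holds the Tbx2 stretch printed above. Its values were 32.1%, 38.5% and 44.2% in Sham and 29.2%, 30.6% and 31.9% in Sham-OVA, without overlap, and it fell by 7.34 points (adjusted p = 0.0022). In PM offspring it fell by 8.75 points (adjusted p = 0.00021), from 37.3%, 38.4% and 45.4% to 25.4%, 30.3% and 38.9%. These ranges overlapped, with all 8 PM-OVA values under the PM mean.

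A second Tbx2 window, chr11:85834793-85837117, also fell, with differences of −6.88 points in Sham offspring and −6.07 points in PM offspring (adjusted p = 0.0014 and 0.0026). All 7 Sham-OVA values and 7 of 8 PM-OVA values were under the mean of their controls. At the gene start, chr11:85832537-85833055 was 0.693% ± 0.46 in Sham and 0.954% ± 0.56 in Sham-OVA, and its differences were 0.26 and 0.35 points (adjusted p = 0.42 and 0.29).

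Tbx3, the close relative of Tbx2, had calls in both directions in PM offspring only. In Sham offspring 3 of its 6 windows rose and none fell, and in PM offspring 1 rose and 2 fell, which became 3 higher and 1 lower after centring. The uncentred rise, in chr5:119672673-119674799, was lost without any 1 of 6 libraries (adjusted p of 0.066 to 0.11, limma). The fall in chr5:119680690-119682727 was lost without any 1 of 7 (0.055 to 0.10) and after centring (0.155). The window chr5:119674800-119678395 had values of 22.2%, 25.6% and 31.0% in Sham and 31.4%, 33.5% and 35.0% in Sham-OVA. These did not overlap and the rise was 7.00 points (adjusted p = 0.00044), while in PM offspring it went from 29.6% ± 3.9 to 32.7% ± 2.5, by 3.09 points (adjusted p = 0.078, and 0.012 and 0.047 without PM replicate 1 and PM-OVA replicate 6). The 3′ window chr5:119682733-119684549, all of it exonic, had values of 16.2%, 19.5% and 20.02% in PM and 10.7%, 13.7% and 16.3% in PM-OVA. It fell by 5.63 points (adjusted p = 4.1e-05), and its difference in Sham offspring was −2.15 points (adjusted p = 0.11). The window at the Tbx3 start lay at 0.690% to 1.29% in the group means and did not pass the test in either comparison (adjusted p = 0.87 and 0.23).

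Tbx4, a driver of lung mesenchyme and of its fibroblasts, had 3 windows that rose and 1 that fell in Sham offspring, and 1 of each in PM offspring, of 11. After centring 4 rose and 1 fell in Sham offspring and 4 rose and none fell in PM offspring. Its start window, chr11:85886132-85887565, had values of 16.6%, 20.8% and 22.8% in Sham and 18.1%, 25.1% and 26.7% in Sham-OVA. It rose by 3.62 points (adjusted p = 0.031), a call that was lost when Sham replicate 5 or Sham-OVA replicate 1, 2, 4 or 5 was left out (adjusted p of 0.054 to 0.086), and its difference in PM offspring was 2.12 points (adjusted p = 0.16). The intronic window chr11:85892866-85895280 fell by 2.75 points in Sham offspring (adjusted p = 0.0050), from 11.1% ± 1.7 to 8.32% ± 1.7, and differed by −1.34 points in PM offspring (adjusted p = 0.15). In PM offspring chr11:85898379-85902967 fell by 3.21 points (adjusted p = 0.024), a call lost without PM replicate 1, 2 or 6 (0.054 to 0.078), with the replicate block (0.057) and after centring (0.20), and differed by 0.05 points in Sham offspring.

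Tbx5, which acts with Tbx4 upstream of mesenchymal growth signals, had 2 windows that rose and 1 that fell in Sham offspring, and 3 that fell in PM offspring, of 16. After centring 4 rose and 1 fell in Sham offspring and 3 rose and 2 fell in PM offspring, and without Sham replicate 1 there were 2 of each in Sham offspring. The window chr5:119840625-119843609 is intronic but for 268 coding bases and holds the Tbx5 stretch printed above. It had values of 15.3%, 17.9% and 20.9% in Sham, 9.90%, 13.0% and 17.5% in Sham-OVA, 18.8%, 21% and 25.4% in PM and 8.80%, 14% and 18.9% in PM-OVA. All challenged values were under the mean of their controls, and it fell, with differences of −4.49 points for Sham-OVA and −7.26 points for PM-OVA (adjusted p = 0.0065 and 8.7e-05). Further along, chr5:119867861-119872507 rose from 58.3%, 59.2% and 63.4% in Sham to 65.6%, 67.3% and 68.9% in Sham-OVA without overlap, by 6.70 points (adjusted p = 0.00023). Its difference in PM offspring was 2.20 points (adjusted p = 0.16, and 0.041 without PM replicate 1). At the gene start, chr5:119832642-119835586 fell by 1.84 points in PM offspring (adjusted p = 0.018), a call lost after centring (−0.859 points, adjusted p = 0.10), and differed by 1.03 points in Sham offspring (adjusted p = 0.17, and 0.046 without Sham replicate 6).

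Tcf21, a factor of lung fibroblast precursors, fell in 1 of its 3 overlapping windows in both kinds of offspring and rose in none. The window chr10:22819747-22823179 holds the gene start and starts upstream at position −3005 bp, and includes the Tcf21 stretch printed above. Its values were 21.1%, 22.6% and 24.5% in Sham, 15.6%, 19.3% and 21.3% in Sham-OVA, 21.5%, 22.9% and 28.1% in PM and 16.4%, 18.8% and 21.6% in PM-OVA. Challenged mice were lower, with each range meeting that of its controls at the edge only, and the differences were −3.99 and −4.67 points (adjusted p = 0.0026 and 0.00045).

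**Figure D5:**
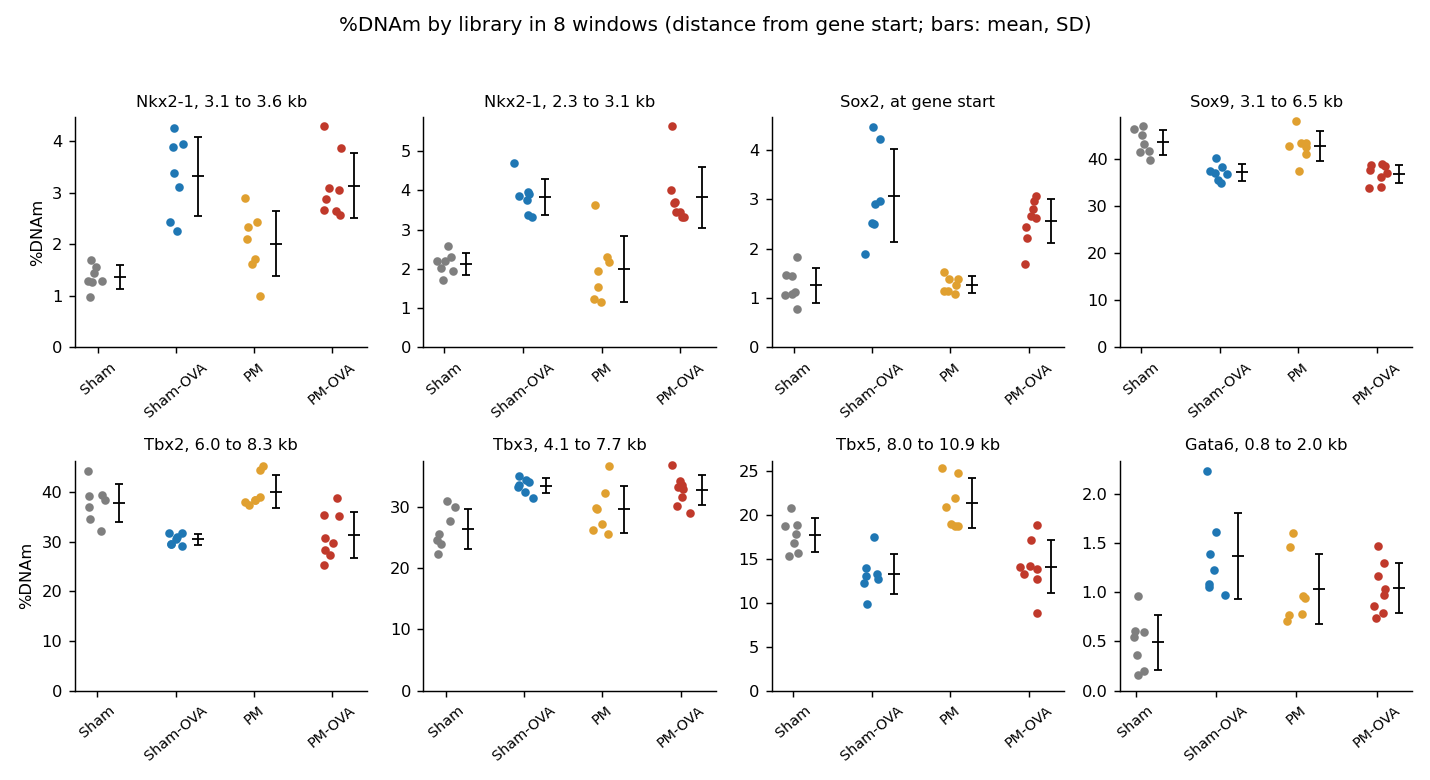
%DNAm of each library (points) in 8 windows, 1 per panel, by group (x axis: Sham, Sham-OVA and PM, n = 7 each, and PM-OVA, n = 8), with mean and SD beside the points. Titles give each window's distance from the gene start, the y axis starts at 0, and the windows were chosen after their values were seen.

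The comparisons between dams, with mice as units because litters are not given, asked what maternal PM2.5 exposure changed, with and without challenge. No member window and none of the 259167 windows passed the limma test after adjustment in either. Without challenge, 10 of the 63 windows (15.9%) differed between PM and Sham at an unadjusted p under 0.05, against 5.79% of all windows, and all 10 were higher in PM (4.89% of all windows were called higher). They were 3 windows each of Tbx3 and Tbx5 and 1 each of Nkx2-1, Tbx2, Tbx4 and Gata6, and neighbouring windows of a gene share libraries and cells. Without Sham replicate 1 the count was 7, and with any 1 library left out it ran from 6 (without Sham replicate 2) to 13. The smallest p was in Gata6 chr18:11052897-11054109, which was 0.54 points higher in PM (adjusted p = 0.72, limma). In challenged offspring 5 of the 63 (7.94%) differed between PM-OVA and Sham-OVA at this level, against 5.96% of all windows, 4 of them lower in PM-OVA, and the count was also 5 without Sham replicate 1 but 3 without Sham-OVA replicate 7. The smallest p was in Nkx2-1 chr12:56535122-56536117, 1.59 points lower in PM-OVA (difference −1.59, adjusted p = 0.79).

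The interaction tests whether the OVA difference depended on the dam, and no member window passed it after adjustment. At an unadjusted p under 0.05 there were 8 of the 63 (12.7%), against 7.4% of all windows, and all 8 had a more negative OVA difference in PM offspring (6.83% of all windows). Without Sham replicate 1 the count was 9, and with any 1 library left out it ran from 6 to 12. The smallest p was that of Gata6 chr18:11052897-11054109 (−0.864 points, adjusted p = 0.55). A window called in 1 kind of offspring only is thus not shown to differ between them. The interaction and the comparison of PM with Sham use the same Sham and PM libraries.

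Windows of related genes were counted in the same way, to be read against 13.3% higher and 22.3% lower in Sham offspring and 9.26% and 34.8% in PM offspring over all windows. Of 106 windows of the 13 other T-box genes, 17 rose and 12 fell in Sham offspring and 15 rose and 25 fell in PM offspring. Of 64 windows of 12 other Nkx genes, with a median level of 3.97%, 20 rose and 6 fell in Sham offspring and 21 rose and 7 fell in PM offspring. Of 63 windows of the 5 other Gata genes, 16 rose and 15 fell in Sham and 13 rose and 21 fell in PM offspring, with a DMR in Gata2 that was 14.9 and 10.8 points higher with challenge. The 374 windows of 16 other Sox genes had 69 that rose and 100 that fell in Sham and 55 that rose and 159 that fell in PM offspring. Among them were 4 DMRs in Sham offspring (1.07%, against 0.775% of all windows), all higher, including Sox7, a factor of endothelium, at 11 points, and 1 DMR in PM offspring (0.267%, against 0.584%). After centring, when gains and losses were nearly equal over all windows, the T-box genes had 26 higher and 9 lower in Sham and 31 and 9 in PM offspring, and the Nkx genes 23 and 4 and then 27 and 2. The Gata genes had 16 higher and 10 lower in Sham and 16 and 15 in PM offspring, and the Sox genes 89 and 86 and then 84 and 115.

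Some windows of other regulators of lung development were DMRs. Of 589 windows of 31 such genes, 127 rose and 156 fell in Sham offspring with 11 DMRs (1.87%, against 0.775% of all windows), and 95 rose and 223 fell in PM offspring with 5 DMRs (0.849%, against 0.584%). The 63 members are too few to set their 0 against these shares. Mycn, a proliferation factor of the distal tips, was lower, with differences of −14.9 and −15.6 points, in a window at chr12:12937250-12938468. Hopx, a marker of alveolar type I cells, was 13.2 and 5.65 points higher with challenge, and Foxp1 was lower, with differences of −11 and −12.7 points. The 945 windows of 23 branching signal genes had 176 that rose and 215 that fell in Sham offspring with 9 DMRs (0.952%), and 137 that rose and 353 that fell in PM offspring with 3 DMRs (0.317%). The share that fell in PM offspring was 37.4%, near that of all windows. The retinoic acid receptor gene Rara held a window that was 16.8 and 15.3 points higher with challenge, and another, chr11:98947220-98950376, that was lower, with differences of −12.3 and −7.66 points. Of 79 windows of 15 epithelial differentiation genes, 23 rose and 10 fell in Sham and 14 rose and 14 fell in PM offspring, with 1 DMR, a loss in the mucin gene Muc5b in PM offspring. After centring, the other regulators had 155 higher and 135 lower in Sham and 156 and 151 in PM offspring, and the branching signals 210 and 178 and then 216 and 208, where all windows also had slightly more gains than losses. The epithelial genes had 33 and 4 and then 32 and 6.

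Markers of other lung cells moved with the same challenge. Of 144 windows of the leucocyte markers, 21 rose and 54 fell in Sham offspring and 14 rose and 65 fell in PM offspring, and 11 of 12 and 10 of 11 DMRs were losses. After centring 28 rose and 49 fell in Sham and 29 rose and 49 fell in PM offspring. The haematopoietic genes Ikzf1 and Ptprc each held a DMR with a loss, of −23.5 and −19.1 points in Sham offspring. Of 127 windows of 12 endothelial and mesenchymal markers, 42 rose and 29 fell in Sham and 33 rose and 42 fell in PM offspring, with 47 higher and 28 lower in Sham and 49 higher and 29 lower in PM offspring after centring, losses and gains in Pecam1 and a gain in Cdh5 of 11.1 points in Sham offspring. The part of such cells in the differences of the 9 transcription factor genes was not tested.

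The windows most like Nkx2-1 chr12:56533269-56533762 over the 29 libraries, by Pearson's r among 247611 windows of genes on other chromosomes, lay in Pttg1ip (r = 0.876), Abtb2 (r = 0.876) and Gabrr2 (r = 0.868). Their group means were higher with challenge and at a much higher level, as in Pttg1ip with 75.7% in Sham and 81.6% in Sham-OVA. The libraries share their groups, so these values describe a common pattern over the groups.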

How the data were processed

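Lung DNA was converted by the authors with the NEBNext Enzymatic Methyl-seq kit, with unmethylated lambda DNA as spike-in. Their methods and labels name Trim Galore for trimming, DRAGEN for mapping (GRCm38) and methylation calls, and SeqMonk for the windows. Each deposited number is a percent of methylation for a window in a library, with no counts and no stated normalisation between libraries. The study's count-based edgeR test could not be run on percentages.

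Percentages were converted to log2((percent + 1)/(100 − percent + 1)) and fitted with limma 3.58.1 in R 4.3.3, with 1 mean per group over all 29 libraries, for the 259167 windows with at least 3 values in every group (1519 were left out). P-values were two-sided and adjusted by Benjamini-Hochberg over all windows tested, and differences are of group mean percentages. The script was checked on simulated data. Windows were annotated with GENCODE M21, of the same build. The windows named were, for each gene, those with the smallest p for OVA in Sham and in PM offspring and that at the gene start, plus the smallest p of each other comparison. The 9 genes and the lists were chosen with earlier results of these data known. Other windows are named with values where the text describes them, having been chosen after their values were seen.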

Additional observations from a re-analysis of the deposited data

Results flagged for a closer look

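In 24 windows and 4 groups, 96 groups of values were examined for a library standing apart from the rest of its group (Dixon's ratio), and 9 were found, where chance alone gives about 1 in 20 groups. At the Tbx3 start window this was 2.47% in Sham replicate 4 (others 0.0714% to 1.00%), 1.86% in PM replicate 2 (others 0.234% to 0.685%) and 4.58% in PM-OVA replicate 6 (others 0.342% to 1.16%). In the 3′ Tbx3 window PM replicate 4 had 16.2% (others 19.5% to 20.02%). PM-OVA replicate 6 also stood apart in the Tbx2 window chr11:85834793-85837117, with 31.1% (others 21.8% to 25.5%), and in the Nkx2-1 window chr12:56533774-56534634, with 5.64% (others 3.31% to 4.00%). The remaining values were 2.13% at the Tbx2 start in Sham-OVA replicate 7 (others 0.518% to 1.08%), 16.6% at the Tbx4 start in Sham replicate 5 (others 20.2% to 22.8%) and 1.45% at the Sox9 start in PM replicate 6 (others 0.211% to 0.679%).

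The windows of the Y chromosome, which entered no comparison of the 9 genes, had a value 1224 times in Sham replicate 1 against 29 to 46 times in each other library.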

How the results depend on the processing

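With a minimum difference of 5 points in place of 10, 6 member windows were called DMRs in Sham and 7 in PM offspring, against 5.96% and 5.89% of all windows. At the study's threshold of 1e-06 the adjusted counts fell to 0 in both comparisons, higher and lower alike. After centring of libraries, 20 windows rose and 9 fell in PM offspring. The difference of the Tbx3 start window in Sham offspring turned from −0.03 to 0.367 points (adjusted p = 0.79). This turn is the amount that centring added to every difference in Sham offspring. Centring also brought 5 named windows past the test in PM offspring, all higher: the Gata6 and Tbx4 starts, Nkx2-1 chr12:56535122-56536117, Tbx3 chr5:119674800-119678395 and Tbx5 chr5:119867861-119872507.

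With 1 library left out in turn, 22 to 28 windows passed the test in Sham offspring (15 to 19 higher, 6 to 9 lower) and 22 to 28 in PM offspring (9 to 14 higher, 12 to 15 lower), with 0 DMRs throughout. The unadjusted counts ran from 6 to 13 for PM without OVA, 3 to 6 for PM with OVA and 6 to 12 for the interaction. Among the 24 named windows, where not past the test, the difference changed sign for Gata6 chr18:11052897-11054109 in PM offspring (−0.0483 to 0.107), the Tbx3 start in Sham offspring (−0.154 to 0.246) and Tbx4 chr11:85898379-85902967 in Sham offspring (−0.437 to 0.692).

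The replicate numbers of the sample titles, which were used for the block, did not pair the libraries. Deviations from group means of same-numbered libraries had correlations of −0.0705 to 0.130, against −0.133 to 0.134 for other numbers. The library names carry other numbers for some mice, and by those the correlations ran from −0.0444 to 0.130 over 27 numbered libraries. With the replicate number as a block, 26 windows passed the test in Sham (19 higher, 7 lower) and 23 in PM offspring (9 higher, 14 lower). The block and the percent scale each removed the call of the Sox9 start window in PM offspring (adjusted p = 0.058 and 0.074). The block also removed that of Tbx4 chr11:85898379-85902967 in PM offspring (0.057) and changed no other call among the 24 named windows, and the percent scale that of Sox9 chr11:112782664-112783457 in Sham offspring (0.11). On the percent scale 25 and 23 windows passed, with an offset of 5 points 26 and 25, and among windows with a value in all 29 libraries 26 and 26. Counting the windows that overlap the genes, 29 and 30 passed. A coverage minimum could not be varied, since the table holds no coverage. The causes were not tested.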
